A study of Sus scrofa with 22 samples.

Results

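AQP10, SLC10A2 and CLDN15, genes for a water and glycerol channel, a bile acid carrier and a claudin, were followed in the small intestine of piglets given chemotherapy. They were picked by name, with their values on these arrays already known, as every probe whose RefSeq accession carries one of these pig symbols. This gave 4 probes, 2 for AQP10 and 1 each for SLC10A2 and CLDN15, of 43603 probes on the array. All 4 probes and all 3 genes passed the filter on dim signals that left 24760 genes in all. Because the values chose the genes, their levels and differences below are descriptions, given with the spread between piglets and without p-values.

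The 22 piglets were Large White × Danish Landrace crosses of specific-pathogen-free status, labelled 3 days old without saying whether at treatment or at sampling. They came from 2 separate experiments. In the first, 6 piglets received doxorubicin (DOX, a topoisomerase II inhibitor) and 6 stayed untreated; in the second, 5 received busulfan plus cyclophosphamide (BUCY, 2 alkylating drugs) and 5 stayed untreated. All piglets were anaesthetised for an orogastric tube and a jugular catheter, through which the drugs were given. Total RNA of the small intestine was measured on 22 two-colour arrays, with the piglet's RNA in Cy5 and a pool of all samples in Cy3. No source used here gives the part of the intestine, the chemotherapy doses or the interval before sampling. Where the untreated groups are compared, the experiment and everything that differed with it cannot be told apart.

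Water crosses the intestinal lining both through cells and between them. Aquaglyceroporins such as AQP10 let water and glycerol pass the cell membrane, and in human small intestine AQP10 lies in the enterocytes. SLC10A2 is the sodium-coupled carrier that takes bile acids up across the brush border, mainly in the ileum, from where they return to the liver. CLDN15 is a tight junction protein that forms pores for sodium between cells, and in mice that sodium return helps to drive sugar uptake.

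Every value is a log2 ratio of the piglet's signal to the pool, so 0 is the pool's level and 1 unit is a doubling. Per array 59.7% to 72.5% of probes lay well above background, and over the tested genes 9 pairs of arrays correlated below -0.3, the lowest at -0.37 between DOX treated piglet 1 and BUCY untreated piglet 2. The dyes are stated in the labels, so the direction of the ratios was kept. Of 23 enterocyte markers 13 could be tested, and FABP2 and APOA4, genes for lipid handling in enterocytes, were well above background on 22 of 22 arrays. The liver genes TTR and CYP2E1 were so on 1 array each, and ALB on 13. BUCY treated piglets 2 and 3 stood apart from the other 3 of their group in enterocyte markers, given below, so counts and calls after BUCY are also given without them.

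AQP10 was lower after BUCY, and the treated and untreated piglets did not overlap. Its brighter probe read -0.54, -4.20, -3.81, -1.32 and -1.45 in BUCY treated piglets 1 to 5. The BUCY untreated piglets read 1.52, 1.55, 2.35, 0.92 and 0.23. Every BUCY treated piglet lay below every untreated piglet of that experiment, with piglets 2 and 3 far below the other 3 treated. The means were -2.27 ± 1.63 in BUCY treated and 1.32 ± 0.79 in BUCY untreated piglets (SD, n = 5 each). The difference was -3.58 (SE 0.81), a 12.0-fold lower level. Among all tested genes, 3.34% were lower without overlap in this comparison, and as AQP10 was chosen on these values nothing is read from that share. Without piglets 2 and 3 the BUCY treated mean was -1.10 ± 0.49 (n = 3), the difference -2.42 (SE 0.45), and the groups did not overlap. Fewer piglets make non-overlap easier to reach, and its share over all genes was not computed for these smaller groups.

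The second AQP10 probe gave the same picture. It averaged -1.38 ± 0.92 in BUCY treated and 1.25 ± 0.60 in BUCY untreated piglets (SD, n = 5 each), a difference of -2.63 (SE 0.49), again without overlap. Across the 22 piglets the log2 ratios of the 2 probes had r = 0.98 and a Spearman rho of 0.98, with a slope of 0.73 for the second probe on the first. The probes sit on the same arrays and are aimed at the same transcript, so they are not independent measurements of the piglets. In both BUCY groups the 2 probes had the same highest and the same lowest piglet.

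AQP10 in DOX treated piglets lay within the spread of the DOX untreated piglets. The brighter probe ran from -3.05 to -0.85 with a median of -2.41 in DOX treated piglets. In DOX untreated piglets it ran from -3.19 to -0.96 with a median of -1.61. The groups overlapped almost wholly, at means of -2.18 ± 0.82 in DOX treated and -1.95 ± 0.92 in DOX untreated piglets (SD, n = 6 each). The difference of -0.23 (SE 0.50) was smaller than its error, and 4 of 6 DOX treated piglets lay below the untreated mean. Within scan days it changed sign, at 0.23 on the first day and -0.96 on the third. The BUCY difference minus the DOX difference was -3.35 (SE 0.95), and -2.19 without BUCY treated piglets 2 and 3.

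The untreated piglets of the 2 experiments differed in AQP10 about as much as the BUCY groups did. The brighter probe was 3.27 (SE 0.52) higher in BUCY untreated than in DOX untreated piglets, a 9.64-fold higher level, and the second probe 2.67 (SE 0.42) higher. Neither probe overlapped between these groups, against 8.92% of all tested genes that were higher without overlap. This comparison and the BUCY comparison share the BUCY untreated piglets, which alone had AQP10 above the pool. The level in BUCY treated piglets overlapped those of both DOX groups. In order of level, AQP10 thus ran from BUCY untreated down to DOX untreated, DOX treated and BUCY treated for the brighter probe, and the last 3 means lay within their spread.

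Slides gave the same signs for the BUCY and untreated differences of AQP10. Within the 3 slides that held both BUCY groups the difference was -2.89, -3.49 and -1.69, each from 2 or 3 arrays. Within the slides that held both untreated groups, BUCY untreated minus DOX untreated was 4.53 on slide 2 and 1.38 on slide 7. BUCY untreated piglet 5, the lowest of its group, sat on slide 7. The size of the untreated difference thus differed between these slides. Over 14 alternative runs, slide as a fixed and as a random block among them, it ran from 2.90 to 3.76. What lay behind the difference between slides was not tested.

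The raw signals show how much of this lies in the piglets' own channel. AQP10's brighter probe spanned 201 to 47641 intensity units in Cy5, a 237-fold range, while the pool in Cy3 spanned 4945 to 10620, a 2.15-fold range. For CLDN15 the Cy5 range was 28.8-fold and the Cy3 range 1.78-fold. SLC10A2 was the dimmest, from 82.5 to 1674 in Cy5, which is 1.27 to 20.8 times its local background. All 4 probes were well above background on 22 of 22 arrays, and the lowest SLC10A2 value is the one nearest to it.

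**Figure D1:**
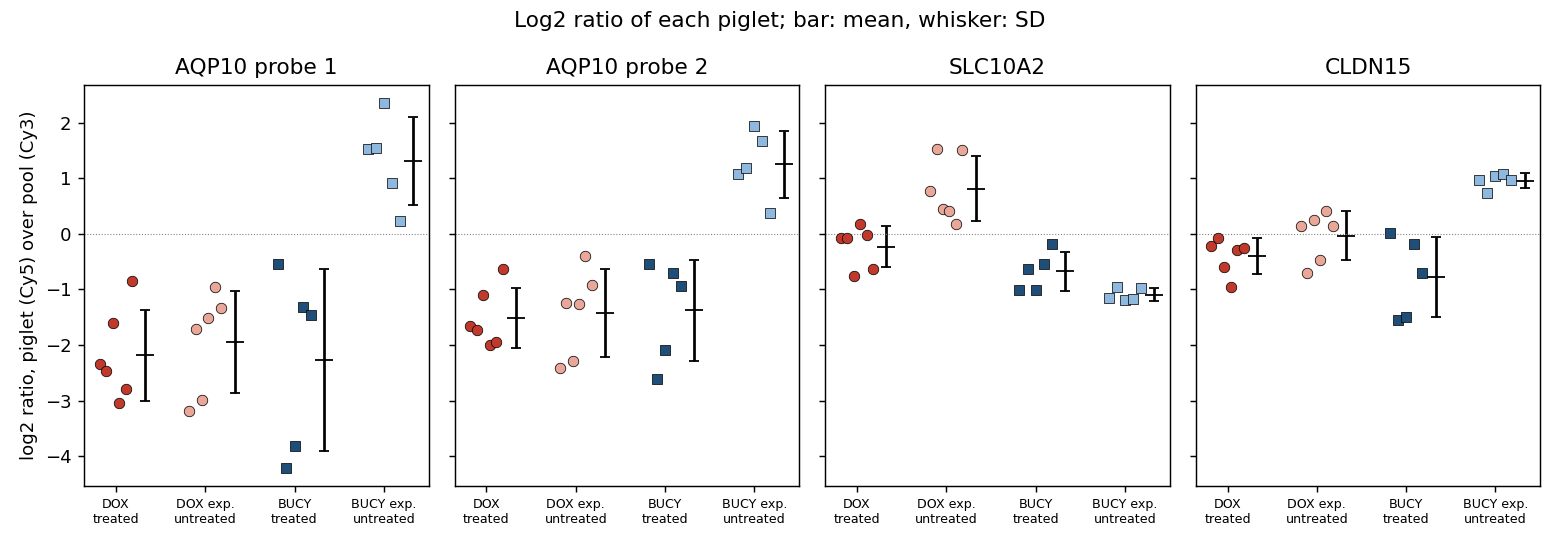
Log2 ratio of the piglet to the pool for each probe (vertical axis) by group (horizontal axis), 1 point per piglet, with the mean (bar) and SD (whisker) to the right of the points. BUCY untreated piglets lie above all others for both AQP10 probes and CLDN15, while for SLC10A2 the DOX untreated piglets are highest, at a mean of 0.81, and the BUCY untreated lowest, at -1.09.

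SLC10A2 was lower after DOX. It ran from -0.76 to 0.18 with a median of -0.07 in DOX treated piglets. In DOX untreated piglets it ran from 0.17 to 1.54 with a median of 0.61. The groups overlapped by a single pair: the highest treated piglet, at 0.178, lay just above the lowest untreated, at 0.174. The means were -0.23 ± 0.37 in DOX treated and 0.81 ± 0.58 in DOX untreated piglets (SD, n = 6 each), a difference of -1.04 (SE 0.28) or 2.05-fold. All 6 DOX treated piglets lay below the untreated mean. Within the 3 slides that held both groups the difference was -1.22, -0.52 and -0.58, and within scan days -0.99 and -0.86. SLC10A2 gave 180.5 to 342 intensity units in DOX treated and 322 to 1674 in DOX untreated piglets. The scanner's own log ratio put the DOX difference at -1.37 (SE 0.36), or 2.58-fold. Its size, and whether the groups overlapped, thus depended on the treatment of dim signals.

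After BUCY, SLC10A2 was slightly higher, with overlapping groups. It read -1.01, -0.62, -1.02, -0.54 and -0.17 in BUCY treated piglets. The BUCY untreated piglets read -1.16, -0.96, -1.20, -1.17 and -0.98, the least spread of its 4 groups. The means were -0.67 ± 0.35 in BUCY treated and -1.09 ± 0.11 in BUCY untreated piglets (SD, n = 5 each), a difference of 0.42 (SE 0.17). SLC10A2 gave 82.5 to 200 intensity units in BUCY treated and 101.5 to 220.5 in BUCY untreated piglets. These ranges overlap, and both lie close to background, where the offset of 50 added to both colours pulls ratios towards 0. The scanner's own log ratio, which adds no such offset, put the BUCY difference at 0.86 (SE 0.31).

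Between the untreated groups SLC10A2 went the other way from AQP10 and CLDN15. BUCY untreated minus DOX untreated was -1.90 (SE 0.24), a 3.74-fold lower level in BUCY untreated piglets with no overlap, against 9.01% of all tested genes that were lower without overlap. With the scanner's own log ratio the same difference was -2.91 (SE 0.28), or 7.50-fold, so its size depends on the treatment of dim signals while its sign did not. From high to low, the SLC10A2 means ran DOX untreated, DOX treated, BUCY treated, BUCY untreated. Each neighbouring pair in that order overlapped, with gaps of 1.04, 0.45 and 0.42. The DOX and BUCY differences had opposite signs, 1.46 (SE 0.33) apart.

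CLDN15 was lower after BUCY, most so in the piglets with the least AQP10. It read 0.02, -1.55, -1.49, -0.18 and -0.70 in BUCY treated piglets. In BUCY untreated piglets it read 0.97, 0.74, 1.03, 1.08 and 0.97. The groups did not overlap, where 3.34% of all tested genes were lower without overlap, and piglets 2 and 3 were again the lowest. The means were -0.78 ± 0.72 in BUCY treated and 0.96 ± 0.13 in BUCY untreated piglets (SD, n = 5 each). The difference was -1.74 (SE 0.33), or 3.34-fold, and -1.25 (SE 0.22), or 2.37-fold, without piglets 2 and 3. The smaller groups did not overlap either, but no share over all genes was computed for them. Within slides it was -1.01, -1.91 and -1.67.

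After DOX the CLDN15 difference was within the spread between piglets. It ran from -0.95 to -0.07 with a median of -0.27 in DOX treated piglets, and from -0.70 to 0.42 with a median of 0.15 in DOX untreated piglets. The groups overlapped, although all 6 treated piglets lay below the untreated mean. The difference was -0.36 (SE 0.22), and the BUCY difference minus the DOX difference -1.38 (SE 0.40), or -0.88 without BUCY treated piglets 2 and 3. BUCY untreated piglets were 0.99 (SE 0.19) higher than DOX untreated piglets, 1.99-fold and with no overlap, beside 8.92% of all tested genes. Their order from high to low was BUCY untreated, DOX untreated, DOX treated and BUCY treated, with overlap between all neighbours but the first pair.

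**Figure D2:**
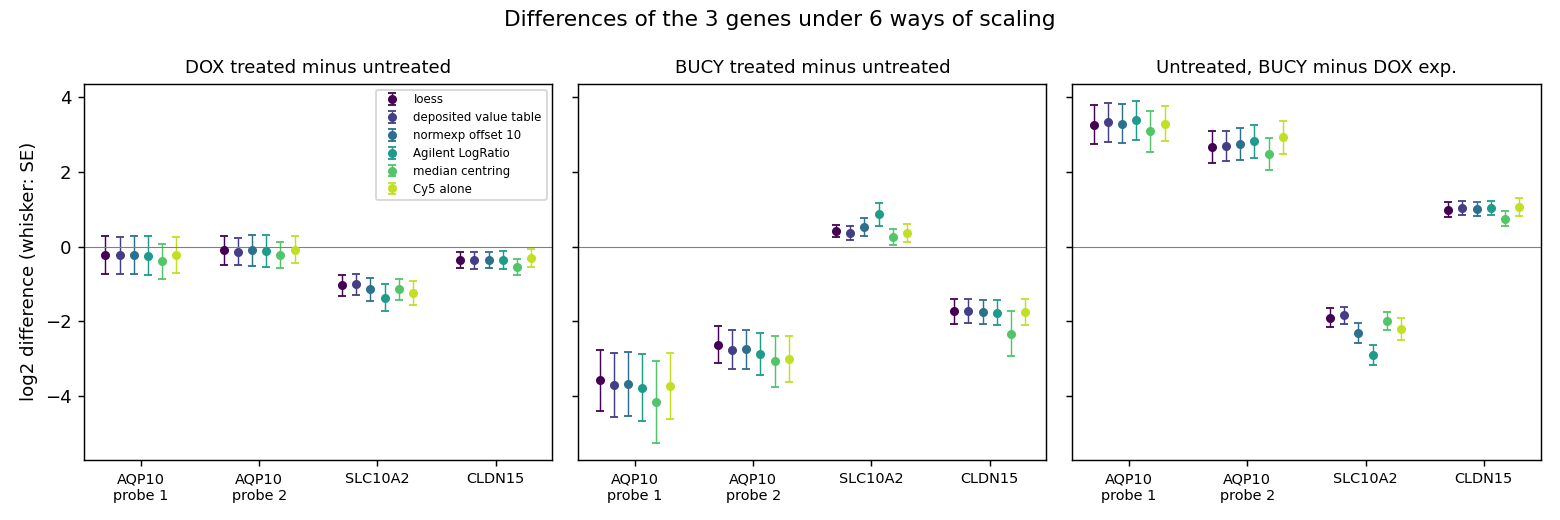
Log2 difference of each probe (vertical axis, whisker: SE) under 6 ways of scaling the same arrays, for DOX, BUCY and the untreated groups. Each difference kept its sign in all 6; that of SLC10A2 between the untreated groups ran from -1.84 in the deposited table to -2.91 in the scanner's own log ratio.

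AQP10 and CLDN15 varied together over the 22 piglets, with r = 0.81, and r = 0.53 after the group means were taken out. AQP10 and SLC10A2 had r = -0.46, and -0.12 within groups. CLDN15 and SLC10A2 had r = -0.25, and -0.20 within groups. The values share their arrays and their pool, and the pooled figures include the gaps between groups. AQP10's link to CLDN15 was thus the only one of the 3 above 0.5 in size both ways. The 0.53 includes BUCY treated piglets 2 and 3, the lowest of all piglets in both genes. They read -4.20 and -3.81 in AQP10, and -1.55 and -1.49 in CLDN15. No r was computed without them or for each group alone, so the 0.53 does not show a link within every group.

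**Figure D3:**
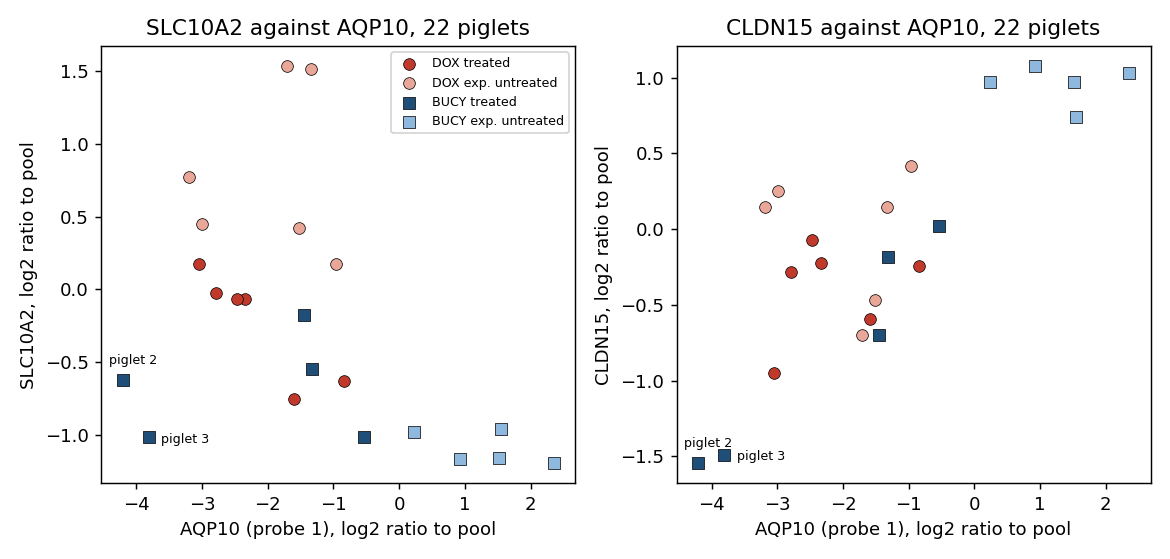
SLC10A2 (left) and CLDN15 (right) against AQP10, as log2 ratios to the pool, 1 point per piglet. BUCY treated piglets 2 and 3 are lowest in AQP10 and CLDN15, while in SLC10A2 they stand at -0.62 and -1.02, beside -1.01 to -0.17 in the other 3 BUCY treated piglets.

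Of 2630 genes with a symbol and a value in every piglet, those most like AQP10 over the 22 piglets were FBXL4 (r = 0.94), SELENOP (0.93), CRYZ (0.92) and SDR16C5 (0.92). NUP93, a nuclear pore protein, was among the most opposed, at r = -0.92. After taking out group means CATSPER2, NR1I3, FBP1 and NR1I2 came first, from 0.88 to 0.87. NR1I3 and NR1I2 encode nuclear receptors that sense foreign compounds and bile acids. These are ranks over points that share groups and arrays, given without a test.

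SLC10A2 resembled LGALS8 (r = 0.87), NCOA3 (0.87), PSME2 (0.86) and GNPNAT1 (0.86) most, and was most opposed to CFTR (-0.82), the chloride channel of crypt secretion, and RPL13A (-0.81). Within groups its best match, IL5, reached only 0.63. CLDN15 resembled OAT (0.87), CS (0.87) and SLC35F5 (0.86) most, and NANS (-0.88) was among the genes most opposed to it. Within groups ECH1 (0.81), PPP2R5A (0.81) and RING1 (0.78) were among its best matches. AQP10 ranked 13 of 2630 genes by likeness to CLDN15 over all piglets, and CLDN15 ranked 51 by likeness to AQP10. After group means were taken out these ranks were 166 and 293.

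Among the other genes of water, bile acid, junction and ion transport, 139 were listed, 73 had a probe with that symbol and 62 could be tested. The test was limma's moderated test with Benjamini-Hochberg adjustment over all 24760 genes. After DOX 0 of the 62 passed, with 3 at an unadjusted p under 0.05, where 0.848% of all genes passed (0.368% higher, 0.481% lower) and 3416 had such a p. After BUCY 1 rose and 12 fell, where 17.3% of all genes passed (8.24% higher, 9.05% lower). Between the untreated groups 15 were higher and 8 lower in the BUCY experiment, where 25.2% of all genes passed (13% higher, 12.2% lower). The median log2 change of the 62 was 0.02 after DOX, -0.31 after BUCY and 0.12 between the untreated groups, beside 0.01, -0.0011 and 0.03 over all genes. Without BUCY treated piglets 2 and 3, 2 of the 62 passed after BUCY, where 1126 of all 24760 genes passed, against 4279 in the main fit. Without piglet 1 alone 22 did, without piglet 4 alone 20, without piglet 2 alone 7 and without piglet 3 alone 6. The calls over all genes moved as well, from 2282 to 6288 with 1 piglet left out.

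**Figure D4:**
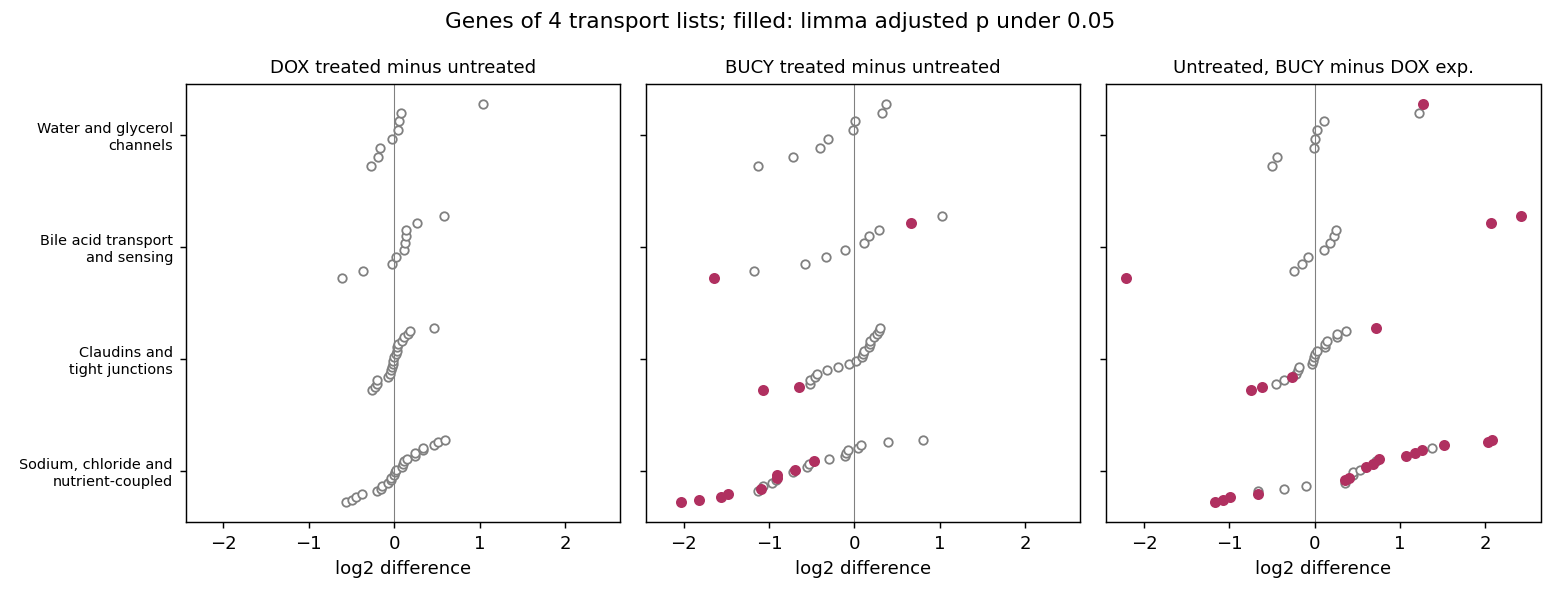
Log2 difference (horizontal axis) of each tested gene of the 4 transport lists (rows), for DOX, BUCY and the untreated groups; filled points passed limma's adjusted p of 0.05. No point is filled after DOX, and 9 of the 13 filled after BUCY are in the list of sodium, chloride and nutrient-coupled transport.

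Of 8 other water channels tested, 0 passed limma's threshold after DOX or BUCY, where 0.848% and 17.3% of all genes passed. In each comparison 1 had an unadjusted p under 0.05. AQP7 lay on either side of limma's threshold depending on the setting. AQP7, a water and glycerol channel like AQP10, averaged -0.19 ± 0.65 in BUCY treated and 0.94 ± 0.85 in BUCY untreated piglets, a difference of -1.13 (SE 0.41) with limma's adjusted p of 0.0608. That p fell below 0.05 without BUCY treated piglet 1 or 4, BUCY untreated piglet 5 or DOX treated piglet 6 (0.0278 to 0.0476), and under 6 of 17 other alternatives (0.0403 to 0.0497), among them median centring, the deposited table and slide as a random block. The difference of AQP7 was -0.68, at 0.489, without BUCY treated piglets 2 and 3. AQP7 was 1.27 (SE 0.39) higher in BUCY untreated than in DOX untreated piglets, limma's adjusted p 0.0208. It was the only 1 of the 8 channels to pass there, where 25.2% of all genes passed. The call ended without DOX untreated piglet 1 or 3 or BUCY untreated piglet 3 or 4 (0.0511 to 0.0748), and with slide as a fixed block (0.90, adjusted p 0.173). AQP8, a water channel of the gut lining, had the smallest p after DOX, at 1.04 (SE 0.43) and an adjusted p of 0.276. AQP4 and AQP9 were well above background on 0 of 22 arrays.

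Of the bile acid list 10 of 40 genes could be tested. CYP27A1, the mitochondrial enzyme that starts the acidic route of bile acid synthesis, fell after BUCY by 1.65 on the log2 scale (SE 0.30, limma's adjusted p 0.00116), 3.13-fold. It read 0.42, -1.05, -1.12, 0.40 and -0.29 in BUCY treated piglets, against 1.19, 0.64, 1.57, 2.45 and 0.75 in BUCY untreated piglets, without overlap. Without piglets 2 and 3 the change was -1.14 with an adjusted p of 0.0253. When only the 2 BUCY groups were fitted, limma's adjusted p was 0.0507. CYP27A1 was also 2.41 (SE 0.29) higher in BUCY untreated than in DOX untreated piglets, adjusted p 3.42e-06. Over the 22 piglets its r was 0.84 with AQP10 and -0.68 with SLC10A2.

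FABP6, which carries bile acids inside ileal enterocytes, is the partner of SLC10A2 in uptake. BUCY untreated minus DOX untreated was -2.21 (SE 0.67, limma's adjusted p 0.0181), the sign seen for SLC10A2. It ran from -3.57 to -3.02 in BUCY untreated piglets, and from -2.47 to 2.47 in DOX untreated piglets. DOX untreated piglet 3 was the 2.47, and the other 5 of that group lay between -2.47 and -0.58. FABP6 did not pass after DOX (-0.61, adjusted p 0.702) or BUCY (1.03, adjusted p 0.324). Its r with SLC10A2 was 0.47 over all piglets and -0.07 within groups.

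NR1I3 was 2.07 (SE 0.48) higher in BUCY untreated than in DOX untreated piglets, limma's adjusted p 0.00296, and had an adjusted p of 0.601 after DOX, the smallest of its list there. SLC10A7, a relative of SLC10A2 not known to carry bile acids, rose after BUCY by 0.66 (SE 0.22), limma's adjusted p 0.0445. That call ended in 10 of 22 omissions of 1 piglet, among them BUCY treated piglets 2 (0.140) and 3 (0.144). Without both the SLC10A7 change was 0.31 (adjusted p 0.527), and with slide as a fixed block 0.37 (0.387). CYP7A1, the enzyme that limits bile acid synthesis in liver, was well above background on 0 of 22 arrays.

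Of the claudins and junction proteins 20 of 40 could be tested, and 2 fell after BUCY, where 9.05% of all genes fell. CLDN10, another pore-forming claudin, averaged -0.68 ± 0.26 in BUCY treated and 0.39 ± 0.65 in BUCY untreated piglets, a fall of 1.07 (SE 0.26, limma's adjusted p 0.00809). CLDN10 was well above background on 3 of 5 BUCY treated and 5 of 5 BUCY untreated arrays, and its fall was 2.17 with the scanner's own log ratio. OCLN, the junction protein occludin, fell by 0.65 (SE 0.18, adjusted p 0.0168), at -0.48 ± 0.50 in BUCY treated and 0.17 ± 0.09 in BUCY untreated piglets. Without BUCY treated piglets 2 and 3 neither passed, at adjusted p of 0.0705 for CLDN10 and 0.227 for OCLN. The same held with slide as a fixed block (0.0772 for CLDN10 and 0.0968 for OCLN), and OCLN lost its call without piglet 3 alone (0.0536). The median log2 change of the 20 was 0.05 after BUCY, while their mean log2 ratio averaged -0.14 in BUCY treated and -0.02 in BUCY untreated piglets, so median and mean differed in sign. CLDN3 had the smallest p after DOX, at 0.47 and an adjusted p of 0.246.

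Between the untreated groups CLDN10 was 0.72 higher (SE 0.25, limma's adjusted p 0.0372), and CLDN23, CDH1 and CTNNB1 were lower, in BUCY untreated piglets. Thus 1 of the 20 was higher and 3 were lower, where 13% of all genes were higher and 12.2% lower. CLDN23, a claudin of the gut lining, was at -0.62 (adjusted p 0.00478) and CDH1, the adhesion protein E-cadherin, at -0.75 (adjusted p 0.00516). CTNNB1, its partner beta-catenin, was at -0.27 (adjusted p 0.0489). The CLDN10 call ended in 7 and the CTNNB1 call in 16 of the 22 omissions of 1 piglet, at adjusted p up to 0.123 and 0.141. Both were also lost with slide as a fixed block, at 0.141 for CLDN10 and 0.314 for CTNNB1. The claudin genes thus differed in both directions, and the highest of the 20 was 0.72, beside 0.99 for CLDN15. As CLDN15 was chosen with its values known, nothing is read from that order.

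The list of sodium, chloride and nutrient-coupled transport held most of the falls after BUCY: 9 of 24 fell and 0 rose, with a median of -0.71, where 9.05% of all genes fell. With slide as a fixed block 4 of the 24 fell, and without BUCY treated piglets 2 and 3 1 fell, at a median of -0.34. Of all 24760 genes, 2295 and 1126 passed in these settings, in either direction. SLC15A1, the peptide carrier of the brush border, fell by 2.03 (SE 0.53, limma's adjusted p 0.0129). SGK1, a kinase that raises sodium transport, fell by 1.82 (SE 0.38, adjusted p 0.00271). VIPR1, a receptor for the secretory peptide VIP, fell by 0.48 (adjusted p 0.0168). Without BUCY treated piglets 2 and 3, SGK1 kept an adjusted p under the threshold (0.0483), while SLC15A1 (0.0579) and VIPR1 (0.203) did not. VIPR1 also lost its call without piglet 3 alone (0.0580), and SLC15A1 with slide as a fixed block (0.0971). When only the 2 BUCY groups were fitted none of these 3 passed, at 0.0531 for SGK1, 0.125 for SLC15A1 and 0.0812 for VIPR1.

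The same list differed between the untreated groups, with 11 of 24 higher and 4 lower in BUCY untreated piglets and a median of 0.49, where 13% of all genes were higher and 12.2% lower. With slide as a fixed block 5 were higher and 3 lower. SGK1 was 2.03 higher (SE 0.36, limma's adjusted p 0.000254) and SLC5A4, a relative of the sodium-glucose carrier, 2.08 higher (adjusted p 0.00172). HSD11B2, which inactivates cortisol in aldosterone target cells, was at -1.08 (adjusted p 2.86e-05). As with AQP10 and CLDN15, this comparison shares the BUCY untreated piglets with the BUCY comparison. After DOX, CFTR had the smallest p of the list, at 0.33 and an adjusted p of 0.254.

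The difference between the 2 drugs' effects was called for 4 of the 62 genes, where 5.88% of all genes passed (3.15% higher, 2.73% lower), and all 4 were negative, that is lower after BUCY relative to DOX. They included SGK1 (-2.42, limma's adjusted p 0.00742), CYP27A1 (-1.91, 0.00863) and OCLN (-0.83, 0.0436). The call of OCLN ended in 17 of 22 omissions of 1 piglet, at adjusted p up to 0.0838, and with slide as a fixed block (0.138). That of SGK1 ended with median centring (0.0791) and without arrays with a title suffix (0.0639). AQP8 had the smallest p among water channels there, at -1.75 and an adjusted p of 0.117.

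Enterocytes are the cells that hold AQP10 and SLC10A2. The enterocyte markers that passed after BUCY and between the untreated groups mostly had the signs of AQP10 and CLDN15. SLC10A2 had the opposite signs, at 0.42 after BUCY and -1.90 between the untreated groups. After BUCY 6 of 13 tested enterocyte markers fell and 0 rose, where 9.05% of all genes fell. With slide as a fixed block, or without BUCY treated piglets 2 and 3, 1 of the 13 fell. Of all 24760 genes, 2295 and 1126 passed in these settings, in either direction. Between the untreated groups 5 were higher and 1 lower in the BUCY experiment, where 13% of all genes were higher and 12.2% lower, and with slide as a fixed block 1 was higher and 1 lower. The mean log2 ratio of the 13 was -1.39 and -2.15 in BUCY treated piglets 2 and 3, and 0.38, 0.45 and -0.09 in BUCY treated piglets 1, 4 and 5, against 0.28 to 0.61 in BUCY untreated piglets. The brighter AQP10 probe read -0.54, -4.20, -3.81, -1.32 and -1.45 in BUCY treated piglets 1 to 5, and 0.23 to 2.35 in BUCY untreated piglets. The part of the enterocyte markers in the AQP10 and CLDN15 results was not tested, and in whole tissue fewer enterocytes and less RNA per enterocyte cannot be told apart. In the DOX experiment the mean ran from -0.72 to -0.08 in DOX treated and from -0.64 to 0.23 in DOX untreated piglets. After DOX 0 of the 13 passed limma's threshold and 0 had an unadjusted p under 0.05, where 0.848% of all genes passed.

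Markers of the ends of the small intestine moved as well; SLC10A2 is known as a gene of the ileum. Of 9 distal markers only FABP6 and GUCA2A could be tested, and they moved in opposite directions between the untreated groups, GUCA2A being 1.07 (SE 0.36, limma's adjusted p 0.0307) higher in BUCY untreated piglets. The GUCA2A call ended with slide as a fixed block (0.0614) and in 6 of 22 omissions of 1 piglet. Of 16 proximal markers 9 could be tested. After BUCY TMPRSS15, the duodenal enteropeptidase, fell by 1.96 (adjusted p 0.00333), SLC46A1, the folate carrier, by 1.26 (0.0138) and GHRL, the gene of ghrelin, by 1.09 (0.00998). These 3 calls ended without BUCY treated piglets 2 and 3, where TMPRSS15 was at -1.32 (0.0722), SLC46A1 at -0.97 (0.135) and GHRL at -0.77 (0.153). In BUCY untreated piglets MLN, SLC46A1 and GHRL were higher, by 0.62, 1.64 and 1.84 (adjusted p 0.00112, 0.000604 and 2.56e-05), and FABP1 lower, at -1.46 (0.0387), than in DOX untreated piglets. The FABP1 call ended with slide as a fixed block (0.160) and in 8 of 22 omissions of 1 piglet. CYBRD1, CCK, GATA4 and PDX1 passed in none of these comparisons or after DOX. The mean of the 9 ran from -1.002 to 0.06 in BUCY treated and -0.14 to 0.57 in BUCY untreated piglets, and from -0.49 to 0.22 in DOX treated and -0.64 to 0.01 in DOX untreated piglets. The part of intestinal region in the results was not tested.

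**Figure D5:**
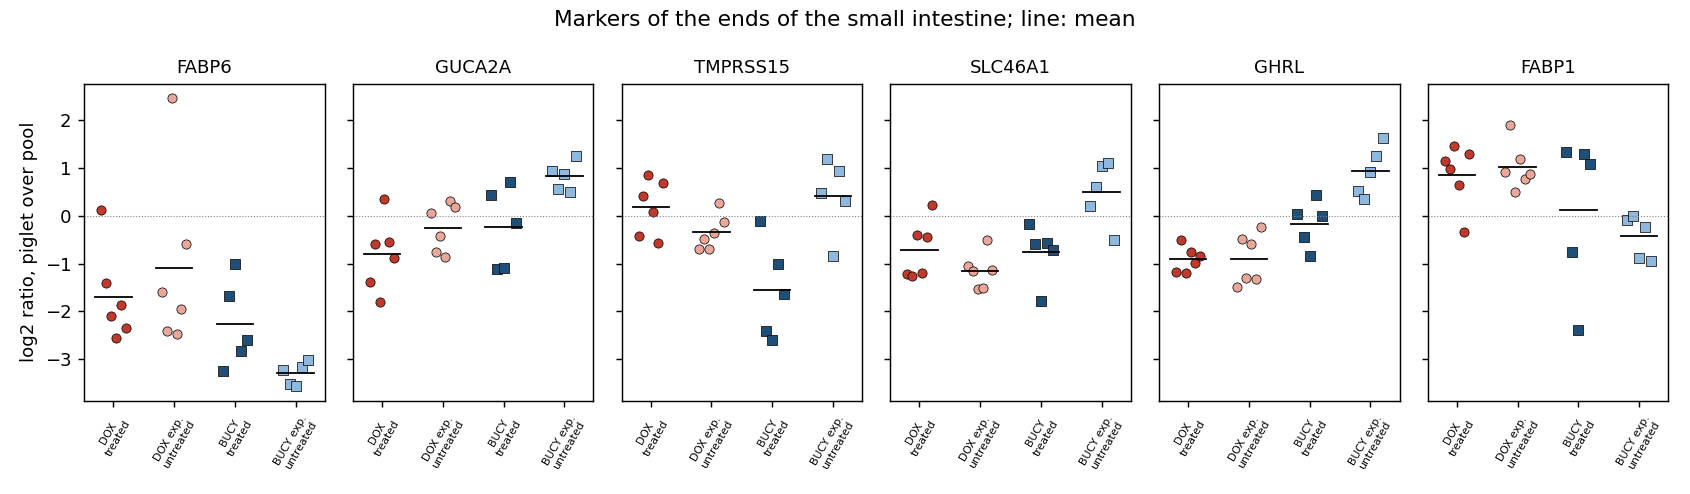
Log2 ratio to the pool (vertical axis) of 2 distal markers (FABP6, GUCA2A) and 4 proximal ones by group, 1 point per piglet, with the mean as a line. FABP6 is lowest in BUCY untreated piglets, between -3.57 and -3.02, and 1 DOX untreated piglet stands at 2.47; SLC46A1 and GHRL are highest on average in BUCY untreated piglets.

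Marker genes of other cells of the gut wall also differed between treated and untreated piglets. Of 11 tested leukocyte markers 2 rose and 4 fell after DOX, and 2 rose and 7 fell after BUCY (2 and 6 without BUCY treated piglets 2 and 3). Over all genes 0.368% rose and 0.481% fell after DOX, and 8.24% rose and 9.05% fell after BUCY. Without BUCY treated piglets 2 and 3, 1126 of 24760 genes passed after BUCY, in either direction. The leukocyte mean ran from -0.41 to 0.34 in DOX treated and from 0.05 to 0.43 in DOX untreated piglets, and it ran from -0.89 to -0.46 in BUCY treated and from -0.51 to 0.07 in BUCY untreated piglets. Of 7 muscle and stroma markers 1 fell after DOX and 2 rose after BUCY (0 without BUCY treated piglets 2 and 3), with means of 0.20 to 1.20 in BUCY treated and -0.11 to 0.07 in BUCY untreated piglets. Of 5 goblet and crypt markers 0 passed limma's threshold after DOX, with 2 at an unadjusted p under 0.05. Their mean ran from 0.35 to 0.75 in DOX treated and from -0.26 to 0.28 in DOX untreated piglets. The log2 changes of the single genes after DOX ran from -0.58 to 2.20, with a median of 0.25, so the mean does not speak for each of them. Of the 5, 1 fell after BUCY and 2 were lower in BUCY untreated than in DOX untreated piglets, where 12.2% of all genes were lower. Of 5 colon and liver markers 0 passed limma's threshold after DOX or BUCY, with 1 and 0 at an unadjusted p under 0.05. The part of these cells in the levels of AQP10, SLC10A2 and CLDN15 was not tested.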

How the data were processed

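Per the file headers, the deposited scanner files, made with Agilent Feature Extraction 10.7.3.1, hold the median intensity of each spot and of its surroundings for Cy5 and Cy3, a log10 ratio of the processed signals, and 0 or 1 flags in other columns. Log2 ratios, Cy5 over Cy3, fill the value table deposited by the authors. The submitters' processing notes name limma beside Agilent's software; how the table was normalised is not stated in the sources used here. Each of its arrays matched loess- and quantile-normalised signals (r 0.995 to 1.00, slopes 0.993 to 1.01), with column medians from 0.00146 to 0.0180; it was used as an alternative.

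Here, median signals were corrected by normexp (offset 50), normalised by loess within arrays (control spots at weight 0), and 3 to 52 outlier spots per array were left out, with limma 3.58.1 in R 4.3.3. No spot was saturated. The log ratio of a dim spot is drawn towards 0 by the offset. Accessions were matched to RefSeq genes of the pig (Sscrofa11.1), which named 6700 of 43603 probes (15.4%); its coordinates were not used, since no source used here names the array's build. Each gene took its brightest probe and was tested if 5 or more arrays had it well above background in Cy5; 24760 genes qualified, 2653 of them with a symbol. One limma model of the 4 groups (lmFit, eBayes, 18 residual and 3.38 prior degrees of freedom) gave p-values adjusted by Benjamini-Hochberg, threshold 0.05. The replicate is the piglet; replicate numbers follow accession order. For members, the SE of a difference came from the SDs of the groups compared. On simulated data for 24760 genes, 77.8% of log2 changes of 1 and 99.1% of 2 were recovered for DOX, and 90% and 97% for BUCY. The simulated noise was independent and normal, with the same spread in all groups and no slide effect. In the real data AQP10 had an SD of 1.63 in BUCY treated and 0.79 in BUCY untreated piglets. The recoveries therefore need not hold for these arrays.

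The genes followed and the gene lists were chosen with earlier results of these data known. Genes named from the transport lists are, per list and comparison, up to 4 that passed with the smallest p, or the one with the smallest p; region markers are given whole as values or counts. Some genes that this rule names are not reported here. Likeness was Pearson's r over 22 piglets. Arrays lay on 7 slides scanned on 3 days; slide and day were tried as blocks. The other alternatives were the scanner's log ratio, median centring, an offset of 10, Aquantile, quantile, the value table, Cy5 alone, the mean of all probes, other filters on dim probes, array weights, fits of only the groups compared, and omissions of arrays. Aquantile leaves log ratios unchanged, so its run repeats the main one and is no check on it. It is included in the counts of alternatives given here. The number of arrays limits the precision.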

Additional observations from a re-analysis of the deposited data

Results flagged for a closer look

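SLC10A2 was lower after DOX and higher after BUCY, with the difference of the effects at 1.46: every DOX treated piglet lay below, and every BUCY treated piglet above, the mean of its untreated group. This difference was not tested, and the signals of both BUCY groups lay close to background. With an offset of 10, with the deposited table, with median centring or with Cy5 alone, 4 of 5 BUCY treated piglets lay above that mean.

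For 5 other genes named here limma's test of the difference passed, BUCY effect minus DOX effect. SGK1 was at -2.42, with effects of -1.82 for BUCY and 0.59 for DOX. CYP27A1 was at -1.91, with -1.65 for BUCY and 0.26 for DOX. TMPRSS15 was at -2.48 (adjusted p 0.0114), with -1.96 for BUCY and 0.52 for DOX. SLC46A1 was at -1.69 (adjusted p 0.0289), with -1.26 for BUCY and 0.44 for DOX. OCLN was at -0.83 (adjusted p 0.0436), with -0.65 for BUCY and 0.19 for DOX. With slide as a fixed block the tests of TMPRSS15 (0.0715), SLC46A1 (0.0554) and OCLN (0.138) no longer passed. Without BUCY treated piglets 2 and 3 they were at 0.0597, 0.0985 and 0.162. The test of SGK1 was lost with median centring (0.0791) and without arrays with a title suffix (0.0639), as were those of these 3 genes.

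CTNNB1 in DOX untreated piglets had its highest piglet apart, at 0.16, with the other 5 between -0.06 and 0.02. It was 1 of 132 groups of values looked at, and chance flags about 1 in 20.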

How the results depend on the processing

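No difference of AQP10, SLC10A2 or CLDN15 reversed under any alternative in which these genes were looked at. They were not looked at with array weights or with the other filters on dim probes. With the scanner's own log ratio SLC10A2 moved to 0.86 after BUCY, to 2.23 for BUCY effect minus DOX effect and to -2.91 between the untreated groups. Median centring, which shifts the median of all genes after BUCY to -0.125, put CLDN15 at -2.33 after BUCY. Without BUCY treated piglets 2 and 3 the BUCY effect minus the DOX effect was -2.19 for AQP10 and -0.88 for CLDN15. Leaving out 1 piglet at a time kept AQP10 after BUCY between -4.01 and -3.10.

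Counts of genes called moved most. DOX gave 210 calls, against 89 with median centring, 131 with Cy5 alone, 349 with slide fixed, 355 with slide random, 493 without BUCY treated piglets 2 and 3, 749 with only its groups, 1167 with array weights and 118 to 359 with 1 piglet left out. BUCY gave 4279, against 2295 with slide fixed, 1480 without arrays with a title suffix, 1126 without piglets 2 and 3, 897 with only its groups and 2282 to 6288 with 1 left out. The difference of effects gave 1457, against 104, 726 with Cy5 alone, 330 without suffix arrays, 732 without piglets 2 and 3 and 938 to 2392; median centring gave the 104. The untreated groups gave 6240, against 3848 with median centring.

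Of the 62 transport genes, BUCY called 13, against 5 with slide fixed, 4 without suffix arrays, 2 without piglets 2 and 3, 0 with only its groups and 6 to 22 with 1 left out. The difference of effects called 4, against 1 with median centring or without suffix arrays, 2 with Cy5 alone, no filter, slide fixed or without piglets 2 and 3, 7 with array weights and 2 to 11 with 1 left out. The untreated groups called 23, against 14 with median centring and 13 with slide fixed; DOX called 1 with only its groups. Over all pairs of a named gene's result and an alternative, the call kept its side of the threshold in 1344, was lost in 195 and was gained in 11. The causes were not tested. No paired analysis was possible because the labels give no replicate numbers shared between groups; slide, which arrays of several groups share, was fitted as a block instead. SLC10A2 is limited by its signal, down to 1.27 times background.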
